A study of Mus musculus with 4 samples.

Results

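The collagen genes of a mouse lung adenocarcinoma line were examined for chromatin accessibility, the degree to which DNA is open to a transposase, as read by ATAC-seq. The members are all peaks whose assigned gene symbol has the form Col, a number, a, and a number, which gave 324 peaks of 43 genes among 80881 peaks of 18759 gene symbols. The rule used names and no measured value. RefSeq lists 44 mouse genes of this form, and the remaining 1, Col6a5, had no peak assigned to it. Inside its RefSeq bounds lie 3 peaks, all assigned to Col6a6. A site enters the table only where the authors called a peak, so a collagen site closed in every library is not among the members.

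KPC cells are a line grown from a lung tumour of a KP mouse and made to carry Cas9, which a lentivirus delivered and puromycin selected. CRISPR activation, which recruits transcriptional activators to a target, was then run from a lentiviral SAM-Hygro vector. In the mA2 dRNA group the guide targeted Malat1, a nuclear long noncoding RNA, and in the Con dRNA group it targeted luciferase, which the mouse genome lacks. Each group had 2 biological replicate cell samples of this 1 line. The comparison asks how raising Malat1 alters chromatin accessibility.

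Collagens are triple-helical proteins of the extracellular matrix. Fibrillar chains build tension-bearing fibrils, collagen IV builds the sheet of basement membranes, collagen VI builds beaded filaments beside cells, and the remaining classes decorate, anchor or link these structures. In lung tumours most collagen is known to come from fibroblasts, while tumour cells make basement membrane chains and, in mesenchymal states, fibrillar and collagen VI chains. Accessible sites near such genes include promoters and distal elements, and a peak is assigned here to a neighbouring gene by the authors' annotation, with no measure of which gene it acts on.

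Of the 43 genes, 35 have a promoter in the RefSeq promoter table for GRCm38.p6, which holds 250 bases before to 50 bases after each start, 38 windows in all. Peaks overlapped 18 of these windows, and none of these peaks had an adjusted p under 0.05 in the authors' deposited table. Of the 18 windows, 4 are printed here. Col8a1 had the smallest adjusted p of any collagen promoter, Col6a1 is a chain of the class with the most calls, Col4a2 shares its promoter with Col4a1, and Col4a6 had the lowest collagen promoter difference. Each reads 5′ to 3′ on the strand of its gene, with capitals marking CCAAT boxes (CCAAT), GC boxes (GGGCGG) and AP-1 sites (TGAGTCA or TGACTCA) on either strand.
Col8a1 promoter, chr16:57754688-57754987, minus strand: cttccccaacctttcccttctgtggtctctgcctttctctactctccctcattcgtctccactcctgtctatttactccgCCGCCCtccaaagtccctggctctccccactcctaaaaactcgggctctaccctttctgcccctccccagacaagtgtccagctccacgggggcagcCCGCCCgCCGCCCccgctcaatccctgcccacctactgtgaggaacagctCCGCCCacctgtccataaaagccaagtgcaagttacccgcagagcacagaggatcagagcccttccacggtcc
Col6a1 promoter, chr10:76725995-76726294, minus strand: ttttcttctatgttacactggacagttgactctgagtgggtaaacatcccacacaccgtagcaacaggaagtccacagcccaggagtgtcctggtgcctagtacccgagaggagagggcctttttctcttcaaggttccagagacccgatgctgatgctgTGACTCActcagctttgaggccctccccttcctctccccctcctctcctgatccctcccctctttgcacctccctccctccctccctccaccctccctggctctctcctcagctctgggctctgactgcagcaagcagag
Col4a2 promoter, chr8:11312555-11312854, plus strand: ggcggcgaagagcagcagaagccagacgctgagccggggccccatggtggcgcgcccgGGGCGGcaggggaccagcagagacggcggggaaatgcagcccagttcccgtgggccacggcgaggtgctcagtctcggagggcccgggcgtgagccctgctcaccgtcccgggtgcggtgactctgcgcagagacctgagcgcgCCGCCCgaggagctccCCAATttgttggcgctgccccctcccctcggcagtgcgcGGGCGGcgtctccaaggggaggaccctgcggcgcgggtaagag
Col4a6 promoter, chrX:141474027-141474326, minus strand: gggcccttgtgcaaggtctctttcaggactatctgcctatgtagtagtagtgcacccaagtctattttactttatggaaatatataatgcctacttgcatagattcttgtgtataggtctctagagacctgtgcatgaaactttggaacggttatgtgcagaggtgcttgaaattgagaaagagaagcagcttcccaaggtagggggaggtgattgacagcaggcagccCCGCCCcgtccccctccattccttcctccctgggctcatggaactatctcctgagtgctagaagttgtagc

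The Col8a1 window holds 4 GC boxes, the Col4a2 window 3 GC boxes and 1 CCAAT box, the Col4a6 window 1 GC box, and the Col6a1 window 1 AP-1 site and none of the other motifs. GC boxes occurred in 60.5% of the collagen windows and 35.7% of all 32851 windows of the table. A CCAAT box was found in 34.2% of the collagen windows and 37.4% of all windows, and a TATA box (TATAAA, both strands) in 13.2% of the collagen windows and 13.6% of all windows. The AP-1 site of Col6a1 was the only 1 in the 38 collagen windows, a share of 2.63%, against 5.20% of all windows. A match is a description of letters and not a bound site.

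Reads are given as the authors deposited them, as a normalized mean for each group at each peak, with mm10 coordinates, and 322 of the 324 collagen peaks were windows of 401 bp. The means are the authors' own and come without an error, because columns of single libraries bear no label's name and stayed unused, so whether a difference exceeded the replicate spread rests on the authors' test. A peak is called higher or lower where the authors' deposited table gives it an adjusted p under 0.05, and rose and fell are used of called peaks alone. Differences are log2 mean reads with mA2 dRNA minus log2 mean reads with Con dRNA, and folds are ratios of the means. In a bulk sample, more cells open at a site and more opening per cell cannot be told apart.

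Over all peaks the median difference was 0.09. Malat1 itself had 13 peaks, of which 1 was called higher, and the peak over its start held 322 reads with mA2 dRNA and 290 reads with Con dRNA (adjusted p = 0.978 in the authors' deposited table). Malat1 RNA was not measured in these libraries. Of 5 lung epithelial markers, 4 had a promoter peak, Krt8 with 559 reads with mA2 dRNA and 584 reads with Con dRNA, while Epcam had none. Of the 27 peaks of these markers, 1, at Krt8, was called higher (3.7%, against 2.23% of all peaks). Promoter peaks of Pdgfra, Dcn, Lum and Thy1 were absent from the table, and the summed promoter reads of the 2 remaining fibroblast markers, Pdgfrb and Postn, were 179 with mA2 dRNA and 119 with Con dRNA. Among all 28 peaks of the 6 fibroblast markers, 3 were called higher, all at Postn (10.7%, against 2.23% of all peaks). In the same 28, 1 was called lower, at Thy1 (3.57%, against 0.507% of all peaks). Of the 4 endothelial markers, Kdr alone had a promoter peak, with 54.4 reads with mA2 dRNA and 32.0 reads with Con dRNA. Of their 23 peaks, 5 were called higher, all at Cdh5 (21.7%, against 2.23% of all peaks). The 4 leukocyte markers had promoter peaks at 2 genes, with summed reads of 390 with mA2 dRNA and 376 with Con dRNA. Of their 15 peaks, 1, at Laptm5, was called lower (6.67%, against 0.507% of all peaks). The part of these marker genes in the collagen results was not tested.

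A few collagen peaks, mostly far from a start, rose with mA2 dRNA, and most of the 324 passed in neither direction. In all, 14 collagen peaks of 10 genes were called higher, 4.32% of the members, where 2.23% of all peaks were called higher. The 1 collagen peak called lower made 0.309% of the members, where 0.507% of all peaks were called lower. By the unadjusted p of the authors' deposited table, at 0.05, 55 collagen peaks were higher (17.0%, against 8.86% of all peaks) and 8 were lower (2.47%, against 2.85% of all peaks). The mean was higher with mA2 dRNA at 227 of the 324 peaks, 70.1%, against 60.8% of all peaks. The median collagen difference was 0.27, beside 0.09 over all peaks, and the differences ran from -1.30 to 3.58. That median was between 0.14 and 0.18 after centring, and 0.025 with the authors' own log2 fold, whose median over all peaks was 0.01. Summed over the members, reads with mA2 dRNA were 1.20 times those with Con dRNA, against 1.07 times over all peaks.

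Among the 14 higher calls the median fold was 2.53, against 2.88 over all peaks called higher, and the folds ran from 1.46 to 12.0. In 5 of them the Con dRNA mean was under 25 reads and in 6 it was 100 reads or more, so the calls held both sites nearly closed in control cells and sites already open. Across genes, 30 of 43 had a median difference above 0 and 13 below 0, and 32 had no called peak in either direction. Of the 32 genes with 3 or more peaks, 5 had a higher mean with mA2 dRNA at every peak, namely Col18a1 (14 peaks), Col6a2 (7), Col27a1 (5), Col6a6 (3) and Col17a1 (3). The reverse held for Col4a6 (9 peaks) and Col4a5 (3), which lie head to head on chromosome X. How often other genes had all their peaks on the same side was not computed, and 60.8% of all peaks had a higher mean with mA2 dRNA. The 3 peaks assigned to Col6a6 all lie inside the RefSeq bounds of Col6a5.

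**Figure D1:**
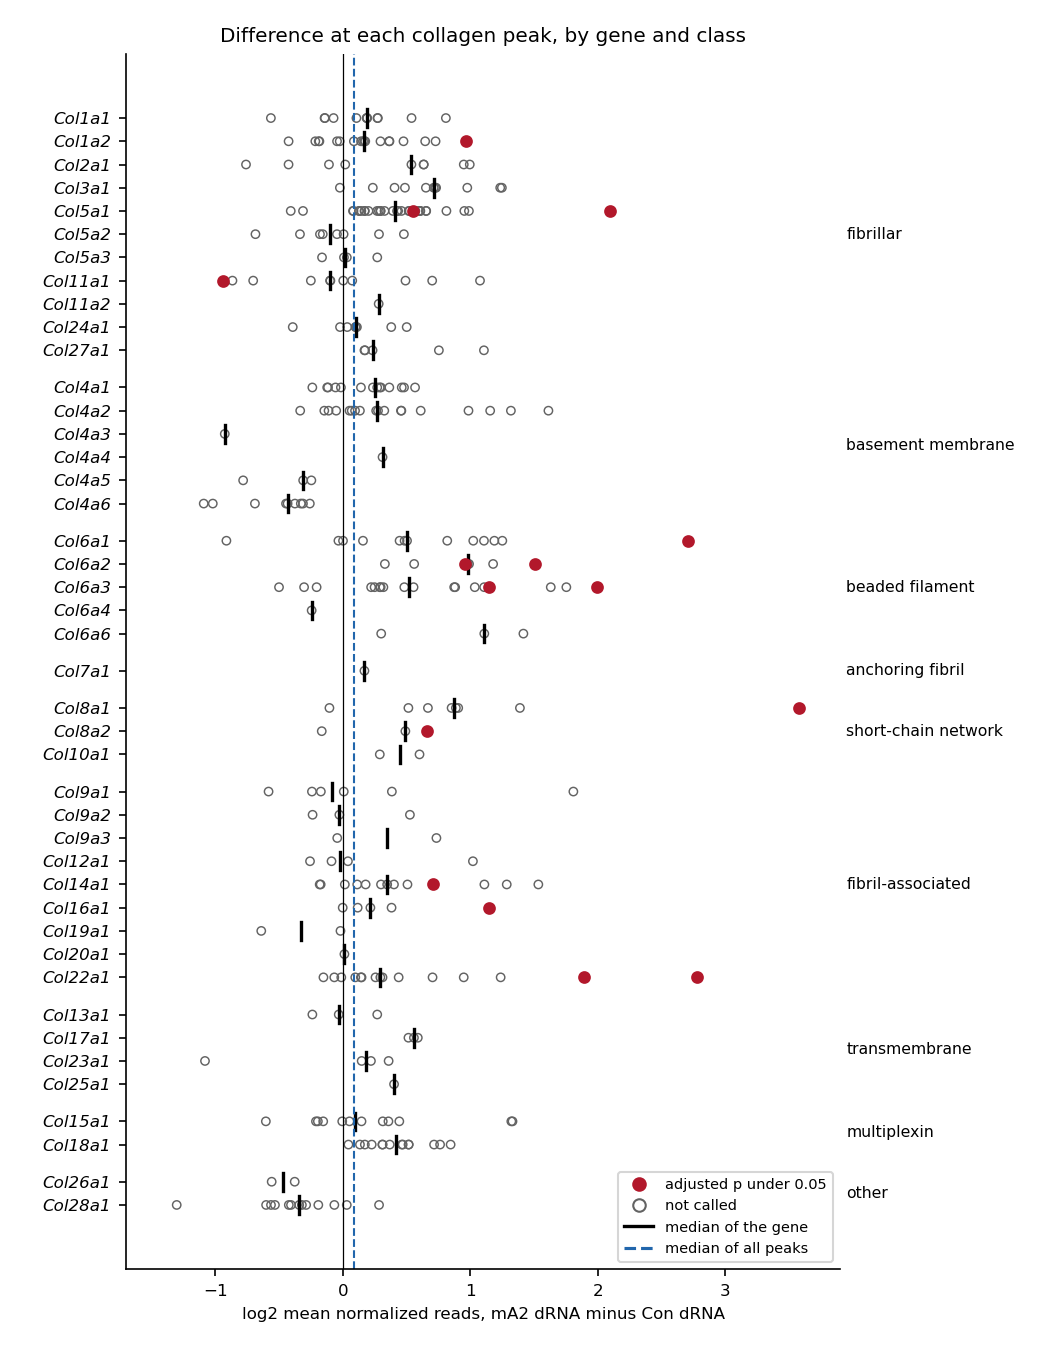
Each circle is 1 collagen peak, placed by its difference in log2 mean normalized reads (mA2 dRNA minus Con dRNA) on the horizontal axis and by its gene on the vertical axis, with genes grouped by class. Filled circles are the 14 higher calls and the 1 lower call, black bars are gene medians, and the dashed line is the median of all peaks, 0.09. The beaded filament genes lie furthest to the right as a class, with a median of 0.69.

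**Figure D2:**
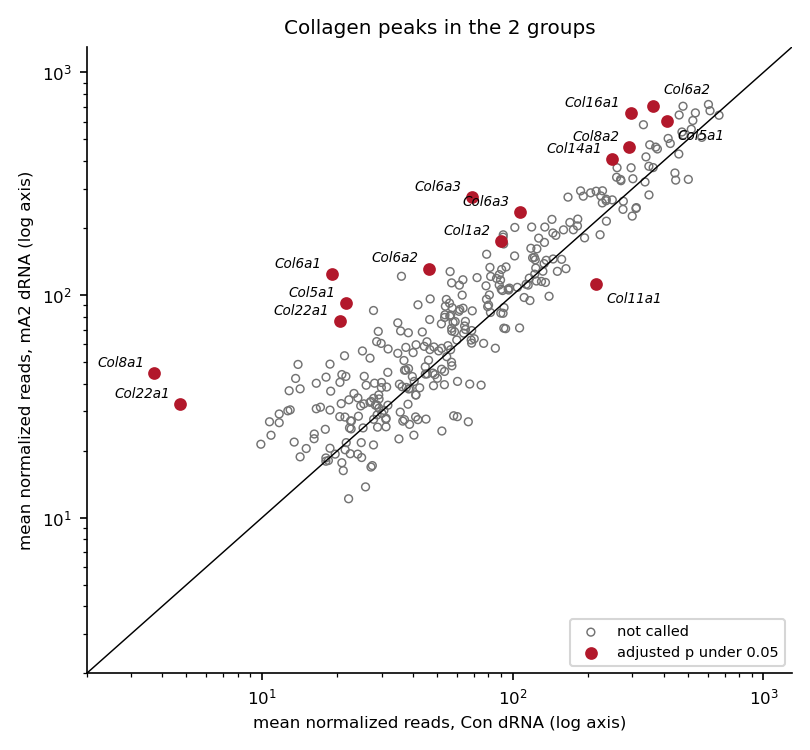
Mean normalized reads of each of the 324 collagen peaks with mA2 dRNA (vertical, log axis) and with Con dRNA (horizontal, log axis), with the line of equal values. Filled points are called peaks with their gene, 14 above the line and 1, at Col11a1, below it, and the 2 leftmost, at Col8a1 and Col22a1, had under 5 reads with Con dRNA.

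Collagen VI, the beaded filament class, held the most calls. Of the 42 peaks of its 5 genes, 11.9% were called higher, 5 in number, against 2.23% of all peaks. The count called lower was 0, which differs little from the 0.507% of all peaks. By the unadjusted p of the authors' deposited table, at 0.05, there were 17 higher peaks (40.5%, against 8.86% of all peaks). By the same p, 0 were lower, against 2.85% of all peaks. The mean was higher with mA2 dRNA at 36 of the 42 peaks, the median difference was 0.69, and the summed reads were 1.56 times those with Con dRNA. The chains of collagen VI assemble from the products of Col6a1, Col6a2 and a longer chain such as Col6a3.

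Col6a1 and Col6a2 stand in a row on the minus strand of chromosome 10, and all 3 calls of the pair lay in the stretch between their starts. The peak at chr10:76681920-76682320, 43.8 kb downstream of the Col6a1 start and past the end of that gene, held 124 reads with mA2 dRNA and 19.0 reads with Con dRNA, a rise of 6.54-fold (adjusted p = 0.00118 in the authors' deposited table). Upstream of Col6a2, the peak at chr10:76648794-76649194, 25.2 kb from the start, held 703 reads with mA2 dRNA and 362 reads with Con dRNA, a rise of 1.94-fold (adjusted p = 0.00303 in the authors' deposited table). The peak at chr10:76650938-76651338, 27.3 kb upstream, rose 2.84-fold, with 131 reads with mA2 dRNA and 46.2 reads with Con dRNA (adjusted p = 0.0118 in the authors' deposited table). Around the first of these, all 12 other peaks within 50 kb had a higher mean with mA2 dRNA, with a median difference of 0.99, while the median over the 403 peaks of the surrounding 10 Mb window was 0.02. The stretch thus stood above its 10 Mb window.

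The promoters of the pair showed smaller differences than the stretch between them. The Col6a1 promoter peak, over the window printed above with its AP-1 site, held 180 reads with mA2 dRNA and 127 reads with Con dRNA (adjusted p = 0.767 in the authors' deposited table). At the Col6a2 promoter there were 373 reads with mA2 dRNA and 297 reads with Con dRNA (adjusted p = 0.582 in the authors' deposited table). Neither promoter was called. Other uncalled peaks of the stretch included 1 with 705 reads with mA2 dRNA and 478 reads with Con dRNA, 45.3 kb upstream of Col6a2 (adjusted p = 0.116 in the authors' deposited table). Beyond Col6a1, the uncalled peak 82.6 kb upstream of its start went the other way, with 13.8 reads with mA2 dRNA and 25.9 reads with Con dRNA (adjusted p = 0.791 in the authors' deposited table).

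Col6a3, on chromosome 1, encodes the longest chain of the common collagen VI assembly, and its 2 calls lay past the 3′ end of the gene. At chr1:90750149-90750549, 93.4 kb downstream of the start, there were 274 reads with mA2 dRNA and 68.8 reads with Con dRNA, a rise of 3.99-fold and the smallest adjusted p of any collagen peak (2.1e-05 in the authors' deposited table). Its neighbour at chr1:90754063-90754463, 89.5 kb downstream, rose 2.22-fold, with 236 reads with mA2 dRNA and 107 reads with Con dRNA (adjusted p = 0.00825 in the authors' deposited table). This second call was lost when differences were centred on the median of a 10 Mb window, which was 0.28 there (adjusted p = 0.106, computed from the authors' deposited table). Of the 10 other peaks within 50 kb of the first, 9 had a higher mean with mA2 dRNA, and some belonged to Cops8, a subunit of the COP9 signalosome. The Col6a3 peak nearest the start, 3.38 kb downstream, held 68.4 reads with mA2 dRNA and 58.6 reads with Con dRNA (adjusted p = 0.968 in the authors' deposited table).

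The other collagen VI chains had few peaks. Col6a6 had 3, all with a higher mean with mA2 dRNA, and the one with the smallest p held 37.9 reads with mA2 dRNA and 14.2 reads with Con dRNA (adjusted p = 0.207 in the authors' deposited table). That peak lies 59.4 kb upstream of Col6a6, inside an intron of Col6a5. All 3 lie inside the RefSeq bounds of Col6a5, and no peak lies inside those of Col6a6. The single Col6a4 peak held 42.3 reads with mA2 dRNA and 50.1 reads with Con dRNA.

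**Figure D3:**
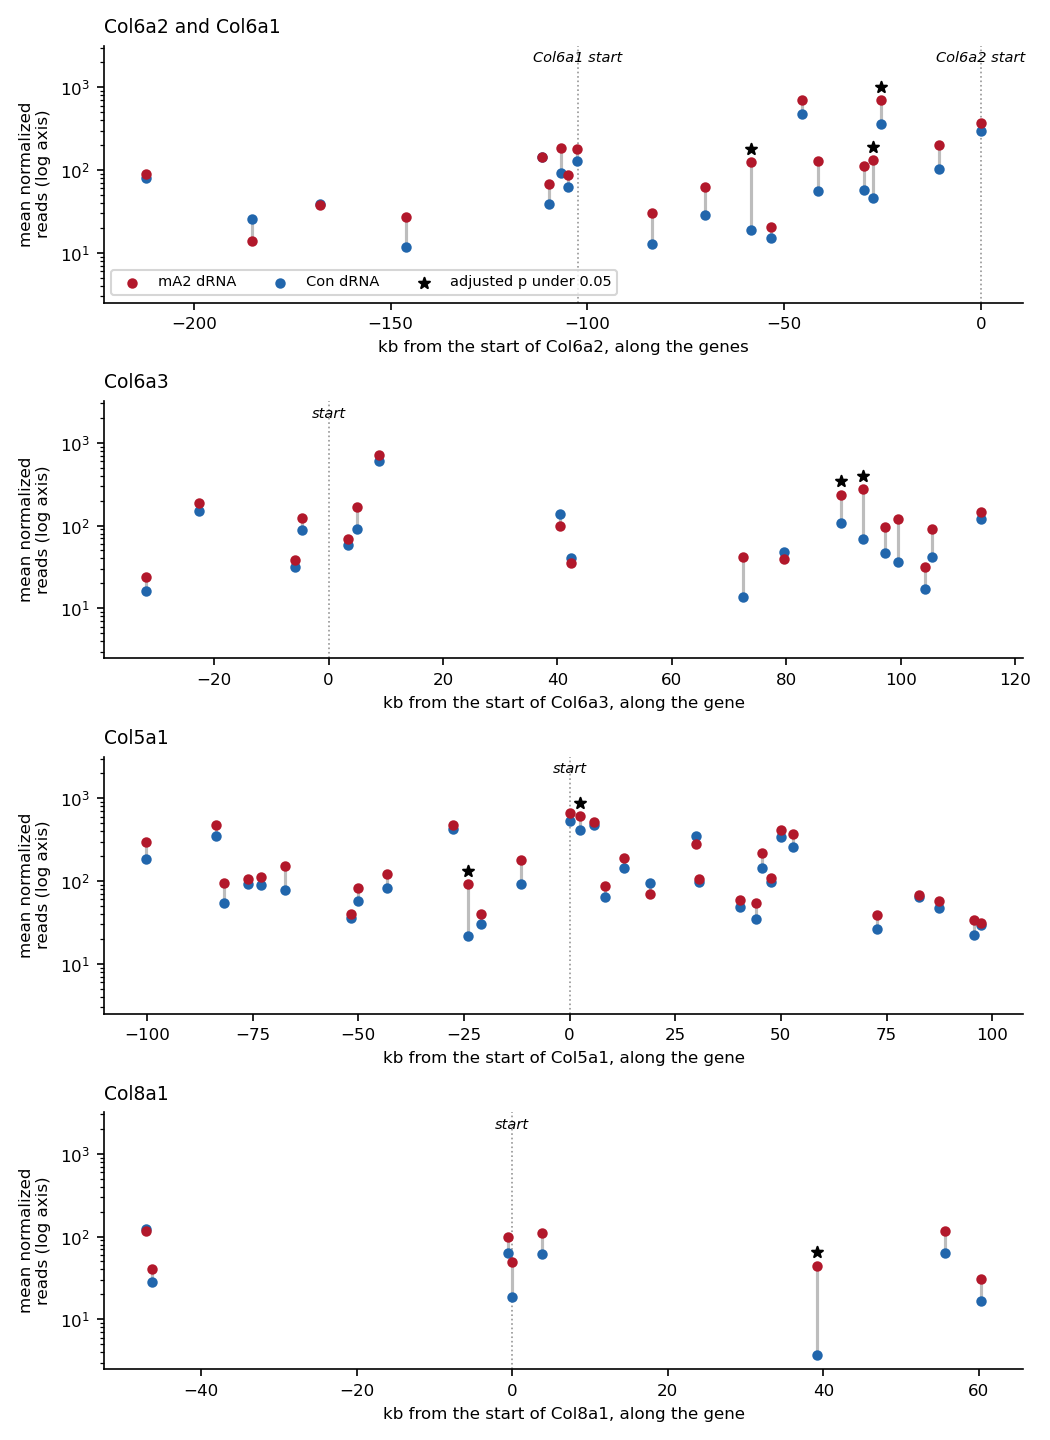
Mean normalized reads (vertical, log axis) of every collagen peak assigned at 4 loci, against distance in kb from the start named under each panel, with red points for mA2 dRNA, blue points for Con dRNA, and stars above called peaks. At Col6a2 and Col6a1 the 3 stars lie between the dotted starts, at Col6a3 both lie past 80 kb, and at Col8a1 the starred peak has 44.6 reads with mA2 dRNA and 3.72 reads with Con dRNA.

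Fibrillar collagens were the most numerous class, with 119 peaks of 11 genes, of which 3 were called higher and 1 lower. The higher calls made 2.52% of the class, near the 2.23% of all peaks, while 89 of the 119 peaks, 74.8%, had a higher mean with mA2 dRNA and the median difference was 0.23. Col5a1, a chain of collagen V that helps set the width of collagen I fibrils, had the most peaks of any collagen gene, 32, and 30 of them had a higher mean with mA2 dRNA. The intergenic peak at chr2:27862025-27862425, 24.0 kb upstream of its start, held 92.0 reads with mA2 dRNA and 21.6 reads with Con dRNA, a rise of 4.27-fold (adjusted p = 0.000321 in the authors' deposited table). A wider peak in intron 1, at chr2:27888792-27889561 and 2.37 kb from the start, rose 1.46-fold, with 603 reads with mA2 dRNA and 412 reads with Con dRNA (adjusted p = 0.0278 in the authors' deposited table). This was the only collagen call within 3 kb of a start, and it was lost under each of 4 ways of centring the differences, with adjusted p from 0.0885 to 0.251 computed from the authors' deposited table. The Col5a1 promoter peak was among the more open collagen peaks in both groups, with 658 reads with mA2 dRNA and 535 reads with Con dRNA (adjusted p = 0.419 in the authors' deposited table).

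Of the chains of collagen I, the main fibril of skin and bone, Col1a2 had 1 called peak. At Col1a2 a peak at chr6:4432155-4432555, 72.3 kb upstream, held 175 reads with mA2 dRNA and 89.9 reads with Con dRNA, a rise of 1.95-fold (adjusted p = 0.0455 in the authors' deposited table). It was the collagen call nearest the threshold from inside. Of the 4 centrings, 3 ended it, with adjusted p from 0.0762 to 0.0989 computed from the authors' deposited table. Centring by 10 Mb window, where the median was -0.18, kept the call (adjusted p = 0.0123, computed from the authors' deposited table). The Col1a2 promoter peak held 76.0 reads with mA2 dRNA and 59.0 reads with Con dRNA (adjusted p = 0.882 in the authors' deposited table). Col1a1 had 12 peaks and no call, and its peak 0.612 kb downstream of the start held 555 reads with mA2 dRNA and 516 reads with Con dRNA (adjusted p = 0.950 in the authors' deposited table). Neither collagen I chain was called at its start.

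Col3a1, the collagen III chain that mixes with collagen I in distensible tissue, had 10 of 11 peaks with a higher mean with mA2 dRNA and a median difference of 0.71, and none was called. Its peak with the smallest p, 2.10 kb upstream, held 42.8 reads with mA2 dRNA and 18.0 reads with Con dRNA (adjusted p = 0.287 in the authors' deposited table). Peaks of Col3a1 were thinly covered, with highest means of 133 reads with mA2 dRNA and 81.2 reads with Con dRNA. Col27a1, a short fibrillar chain of cartilage, had 75.0 reads with mA2 dRNA and 34.8 reads with Con dRNA at its peak with the smallest p, 19.5 kb downstream (adjusted p = 0.223 in the authors' deposited table). For Col2a1, the cartilage collagen, the corresponding peak held 43.1 reads with mA2 dRNA and 21.6 reads with Con dRNA (adjusted p = 0.409 in the authors' deposited table). The remaining fibrillar genes, Col5a2 with 8 peaks, Col5a3 with 4, Col24a1 with 8 and Col11a2 with 1, had no call and median differences from -0.10 to 0.28.

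The 1 lower collagen call was assigned to Col11a1, a chain that nucleates thin fibrils in cartilage. The intergenic peak at chr3:114416111-114416511, 386 kb downstream of the start, held 112 reads with mA2 dRNA and 215 reads with Con dRNA, a difference of -0.94 (adjusted p = 0.0350 in the authors' deposited table). No other peak lay within 50 kb of it. Centring by chromosome or by 10 Mb window ended the call, with adjusted p of 0.0523 and 0.0895 computed from the authors' deposited table. The Col11a1 promoter peak differed in the other direction, with 288 reads with mA2 dRNA and 205 reads with Con dRNA (adjusted p = 0.368 in the authors' deposited table).

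Among the network collagens, the short-chain class had 2 higher calls among 13 peaks, beside 2.23% of all peaks, and the basement membrane class had 0 among 46, a count that differs little from that share. Col8a1, a chain of the hexagonal network beneath vascular and corneal endothelium, held the largest collagen fold. The intron 1 peak at chr16:57715187-57715587, 39.2 kb downstream of the start, had 44.6 reads with mA2 dRNA and 3.72 reads with Con dRNA, a ratio of 12.0 (adjusted p = 0.000376 in the authors' deposited table). The low control mean makes the size of this ratio imprecise, and the authors' log2 fold there was 2.04, beside a difference of 3.58. Its promoter peak, over the window with 4 GC boxes, held 49.0 reads with mA2 dRNA and 18.7 reads with Con dRNA, and was not called (adjusted p = 0.123 in the authors' deposited table). Each of the 9 other peaks within 50 kb of the called one had a higher mean with mA2 dRNA, with a median difference of 0.85, where the 10 Mb window had a median of 0.31 and chromosome 16 one of 0.26.

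Col8a2, the partner chain, had its call at chr4:126301030-126301430 in intron 2, with 462 reads with mA2 dRNA and 292 reads with Con dRNA, a rise of 1.58-fold (adjusted p = 0.0293 in the authors' deposited table). All 4 centrings ended it, with adjusted p from 0.0708 to 0.132 computed from the authors' deposited table. The nearest Col8a2 peak to the start, 8.51 kb upstream, held 46.4 reads with mA2 dRNA and 52.1 reads with Con dRNA. Col10a1, the collagen of growth plate cartilage, had 2 peaks and no call, the better with 81.5 reads with mA2 dRNA and 53.7 reads with Con dRNA (adjusted p = 0.638 in the authors' deposited table).

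Collagen IV genes come in head-to-head pairs that share a start region, and none of their peaks was called. Of the 46 peaks of this class, 24 had a higher mean with mA2 dRNA and 22 a lower one, with a median difference of 0.06. The windows of Col4a1 and Col4a2, the main basement membrane chains, share 78 bases and 1 peak, which held 453 reads with mA2 dRNA and 378 reads with Con dRNA (adjusted p = 0.676 in the authors' deposited table). Col4a1 had a higher mean with mA2 dRNA at 9 of 14 peaks and Col4a2 at 14 of 18. A peak assigned to Col4a2 but inside intron 1 of Col4a1, 34.3 kb from the Col4a2 start, held 85.2 reads with mA2 dRNA and 27.9 reads with Con dRNA, a ratio of 3.06 (adjusted p = 0.0703 in the authors' deposited table). It was the collagen peak just outside the threshold. Col4a3 and Col4a4, the pair of the kidney and alveolar basement membrane, had 1 peak each and no call. The Col4a3 peak held 39.4 reads with mA2 dRNA and 74.8 reads with Con dRNA, and the Col4a4 peak 46.0 reads with mA2 dRNA and 37.0 reads with Con dRNA.

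On the X chromosome, all 12 peaks of Col4a5 and Col4a6, chains of epithelial basement membranes, had a lower mean with mA2 dRNA, and none was called. The Col4a6 promoter peak, over the window with 1 GC box, held 24.5 reads with mA2 dRNA and 52.2 reads with Con dRNA (adjusted p = 0.273 in the authors' deposited table). At the Col4a5 promoter, whose window starts 842 bp away, there were 94.5 reads with mA2 dRNA and 117 reads with Con dRNA (adjusted p = 0.891 in the authors' deposited table). The median difference of the 12 peaks was -0.40, beside -0.12 over all 1854 peaks of chromosome X. The collagen peaks were thus on the same side as their chromosome, and the part of the chromosome in their lower means was not tested.

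**Figure D4:**
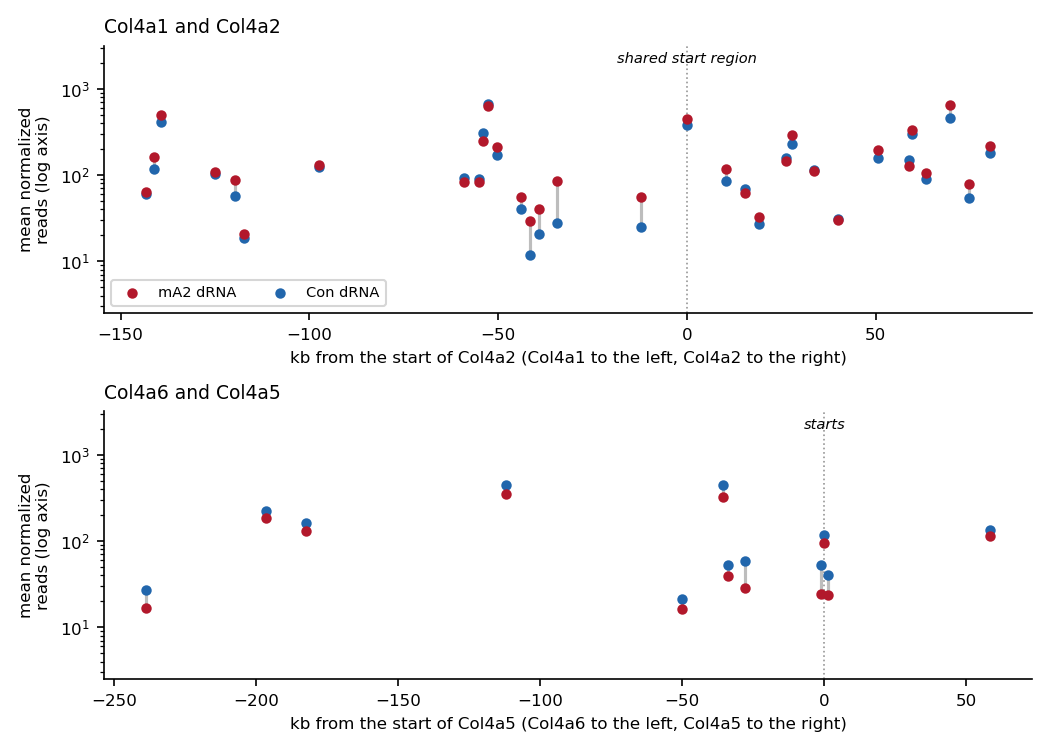
Mean normalized reads (vertical, log axis) of every peak assigned to the collagen IV pairs, against distance in kb from the start named under each panel, with red points for mA2 dRNA and blue points for Con dRNA. At Col4a6 and Col4a5 the mA2 dRNA point is below the Con dRNA point at all 12 peaks, while at Col4a1 and Col4a2 it is above at 23 of 32, and no peak in either panel was called.

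Fibril-associated collagens, which sit on the surface of fibrils, had 4 higher calls among 51 peaks of 9 genes, 7.84% beside 2.23% of all peaks, and a median difference of 0.18. None of the 51 was called lower, where 0.507% of all peaks were. Col16a1 had the second smallest adjusted p among collagen peaks. Its peak at chr4:130036938-130037338, 10.5 kb upstream of the start, held 654 reads with mA2 dRNA and 295 reads with Con dRNA, a rise of 2.21-fold (adjusted p = 2.92e-05 in the authors' deposited table). By contrast the Col16a1 promoter peak held 379 reads with mA2 dRNA and 349 reads with Con dRNA (adjusted p = 0.957 in the authors' deposited table). Of these windows of equal width, the upstream one held more reads than the promoter with mA2 dRNA and fewer with Con dRNA.

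Col22a1, which encodes a collagen of muscle-tendon junctions, had 2 calls, both far upstream of the start the authors used. The peak at chr15:72145530-72145930, 111 kb from that start, held 76.2 reads with mA2 dRNA and 20.5 reads with Con dRNA, a rise of 3.72-fold (adjusted p = 0.0126 in the authors' deposited table). The authors' annotation has it as intergenic, while the RefSeq bounds of Col22a1, chr15:71795795-72150979, reach past it. The peak at chr15:72172255-72172655, 138 kb from the start, outside those bounds and in an exon of another transcript, held 32.5 reads with mA2 dRNA and 4.72 reads with Con dRNA, a ratio of 6.87 (adjusted p = 0.0135 in the authors' deposited table). As at Col8a1, the second ratio rests on a very low control mean, and the authors' log2 fold there was 1.26, beside a difference of 2.78. A further peak, 76.3 kb from the same start, held 68.7 reads with mA2 dRNA and 29.1 reads with Con dRNA and was not called (adjusted p = 0.136 in the authors' deposited table).

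Col14a1, a fibril-associated chain of tendon and skin, had 11 of 13 peaks with a higher mean with mA2 dRNA. Its call at chr15:55245618-55246018, 61.7 kb upstream and inside the last intron of Deptor, an inhibitor of mTOR signalling, held 407 reads with mA2 dRNA and 249 reads with Con dRNA, a rise of 1.63-fold (adjusted p = 0.0408 in the authors' deposited table). It did not hold under any of the 4 centrings, with adjusted p from 0.0868 to 0.594 computed from the authors' deposited table, and its 10 Mb window had a median of 0.31. At the Col14a1 promoter there were 28.3 reads with mA2 dRNA and 21.4 reads with Con dRNA. Of the other chains in the class, Col9a1, a collagen IX chain of cartilage, held 48.8 reads with mA2 dRNA and 13.9 reads with Con dRNA at its peak with the smallest p (adjusted p = 0.244 in the authors' deposited table). Col12a1, which binds collagen I fibrils, held 60.7 reads with mA2 dRNA and 29.9 reads with Con dRNA at its own (adjusted p = 0.321 in the authors' deposited table). The 4 genes Col9a2, Col9a3, Col19a1 and Col20a1 had 8 peaks in all, no call, and median differences from -0.33 to 0.35.

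The multiplexins, whose C-terminal ends release endostatin-like fragments, had no call among 26 peaks of 2 genes. That count differs little from the 2.23% of all peaks called higher and 0.507% called lower. Even so, Col18a1 had a higher mean with mA2 dRNA at all 14 of its peaks, with a median difference of 0.42, where the median of chromosome 10 was 0.04. Its promoter peak held 202 reads with mA2 dRNA and 119 reads with Con dRNA (adjusted p = 0.134 in the authors' deposited table). At the most open Col18a1 peak, 40.1 kb upstream, there were 672 reads with mA2 dRNA and 612 reads with Con dRNA. Col15a1, the related chain, was mixed, with 7 of 12 peaks higher with mA2 dRNA and 5 lower. Its promoter held 27.6 reads with mA2 dRNA and 41.9 reads with Con dRNA (adjusted p = 0.791 in the authors' deposited table).

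Transmembrane collagens, with 11 peaks, and collagen VII, with 1, had no calls. So few peaks cannot be told from the 2.23% of all peaks called higher and 0.507% called lower. Col17a1, the hemidesmosome collagen of epithelial cells, had 3 peaks, all higher in mean. They were led by 202 reads with mA2 dRNA and 134 reads with Con dRNA at the peak 7.63 kb upstream (adjusted p = 0.318 in the authors' deposited table). Their median difference was 0.56, where chromosome 19 as a whole had a median of 0.20. Col23a1, another membrane chain, had a peak with 28.4 reads with mA2 dRNA and 60.1 reads with Con dRNA, 141 kb downstream (adjusted p = 0.420 in the authors' deposited table). Col13a1 had 3 peaks, whose highest means were 29.4 reads with mA2 dRNA and 30.1 reads with Con dRNA, and Col25a1 had 1, with 18.8 reads with mA2 dRNA and 14.2 reads with Con dRNA. Col7a1, which forms the anchoring fibrils of skin, had 1 peak, near its start, with 196 reads with mA2 dRNA and 175 reads with Con dRNA (adjusted p = 0.957 in the authors' deposited table).

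Col28a1, a von Willebrand factor domain collagen of peripheral nerve, was the autosomal gene with the most peaks on the lower side. The mean was lower with mA2 dRNA at 11 of its 13 peaks, with a median difference of -0.34. Chromosome 6 as a whole had a median of 0.04, while the 10 Mb window that holds the gene had one of -0.18. The part of that window in the lower means was not tested. The peak with the largest drop, in an intron 18.7 kb downstream of the start, held 27.0 reads with mA2 dRNA and 66.5 reads with Con dRNA, a difference of -1.30 that was not called (adjusted p = 0.123 in the authors' deposited table). At the most open Col28a1 peak, 86.4 kb downstream, there were 331 reads with mA2 dRNA and 502 reads with Con dRNA (adjusted p = 0.162 in the authors' deposited table). Both Col26a1 peaks also had lower means with mA2 dRNA, and neither was called.

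By position, the calls were distal. Of the 14 higher calls, 1 lay within 3 kb of the start of its gene and 11 lay more than 20 kb away. Over all 14, 8 lay upstream and 6 downstream. Distances are from the start the authors used, and 1 Col22a1 call counted as upstream lies inside the RefSeq bounds of that gene. Within 3 kb, 1 of 47 collagen peaks was called higher (2.13%), against 1.33% of all peaks at that distance. From 10 to 50 kb the share was 7 of 125 (5.60%), against 2.00% of all peaks, and from 50 to 200 kb it was 6 of 114 (5.26%), against 3.25% of all peaks. Distal peaks were also called more often over the whole table. From 3 to 10 kb, 0 of 29 collagen peaks were called, against 1.61% of all peaks.

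**Figure D5:**
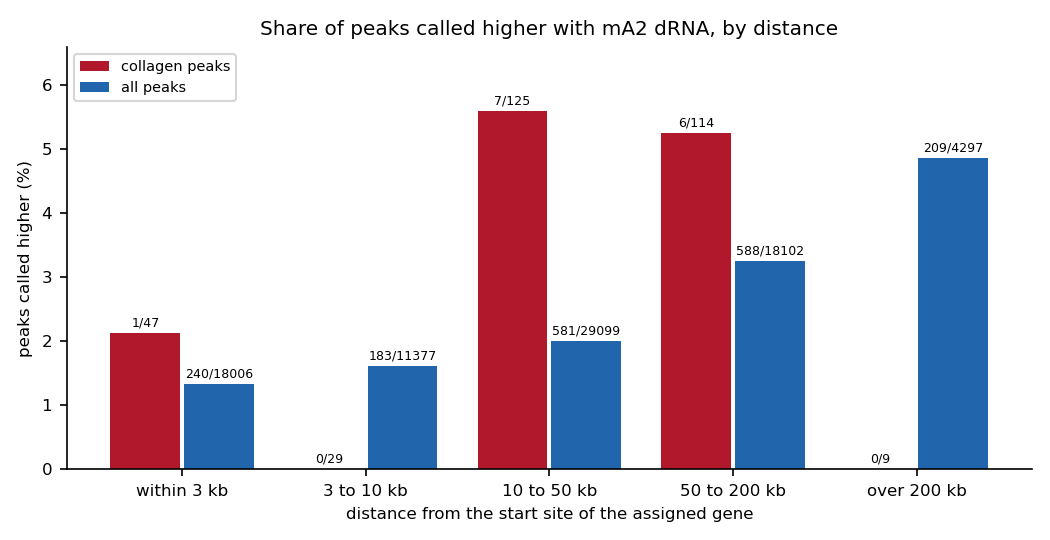
Share of peaks called higher with mA2 dRNA (vertical, percent) by distance from the start of the assigned gene, in red for collagen peaks and in blue for all peaks, with the number called over the number of peaks above each bar. The collagen share was 5.60% from 10 to 50 kb, against 2.00% of all peaks, and 0 in the bins that held 29 and 9 collagen peaks.

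By annotation, collagen peaks the authors class as intergenic held 8 higher calls of 117 (6.84%, against 2.58% of all intergenic peaks), and 93 of the 117 had a higher mean with mA2 dRNA. Intronic collagen peaks held 5 of 148 (3.38%, against 2.47% of all intronic peaks). No collagen peak annotated as promoter was called, of 27, where 1.20% of all promoter peaks were called higher, although the median difference of the 27 was 0.28, beside 0.07 over all promoter peaks. The 18 RefSeq promoter windows with a peak belonged to 16 genes and 16 peaks, of which 14 had a higher mean with mA2 dRNA. The exceptions were the promoters of Col4a5 and Col4a6.

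The assignment to genes is by nearness, and it matters here. Of the 324 peaks, 190 lay inside the RefSeq bounds of a collagen gene and held 4 of the 14 higher calls, while the 134 outside any collagen gene held 10 (7.46%) and the 1 lower call. Counting every peak inside a collagen gene, whatever gene it was assigned to, gave 250 peaks with 6 higher calls (2.40%) and 0 lower, close to the 2.23% of all peaks. By the unadjusted p of the authors' deposited table, at 0.05, 12.4% of the 250 peaks were higher, against 8.86% of all peaks, and their median difference was 0.17, beside 0.09. The difference between sites inside and outside the genes was not tested.

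The genes that process and bind collagen were examined for the same shift. Of 35 listed genes of biosynthesis and crosslinking, 34 had peaks, and 7 of their 183 peaks were called higher (3.83%) and 2 lower (1.09%), with a median difference of 0.18. Loxl1, a lysyl oxidase that crosslinks elastin and collagen, had its promoter peak called, with 194 reads with mA2 dRNA and 48.1 reads with Con dRNA, a rise of 4.04-fold (adjusted p = 0.000130 in the authors' deposited table). A second Loxl1 peak, 13.5 kb downstream, rose 2.80-fold, with 287 reads with mA2 dRNA and 103 reads with Con dRNA (adjusted p = 0.00484 in the authors' deposited table).

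Adamts2, the protease that removes the N-propeptide of procollagen, rose 2.04-fold at a peak 20.1 kb downstream, with 388 reads with mA2 dRNA and 190 reads with Con dRNA (adjusted p = 0.00271 in the authors' deposited table). Sparc, a collagen-binding matricellular protein, rose 2.02-fold at a peak 16.8 kb downstream, with 601 reads with mA2 dRNA and 298 reads with Con dRNA (adjusted p = 0.00588 in the authors' deposited table). A second Sparc call 3.06 kb downstream and the Adamts2 promoter call were lost under all 4 centrings. P3h4, a component of the lysyl hydroxylation complex, was called at its promoter, with 352 reads with mA2 dRNA and 202 reads with Con dRNA (adjusted p = 0.0147 in the authors' deposited table), and lost the call when centred by chromosome or by window. The lower calls were at P3h2, a prolyl 3-hydroxylase, with 84.5 reads with mA2 dRNA and 210 reads with Con dRNA (adjusted p = 0.00747 in the authors' deposited table), and at Tll2, a tolloid protease, with 27.2 reads with mA2 dRNA and 85.5 reads with Con dRNA (adjusted p = 0.0133 in the authors' deposited table).

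Of 21 listed genes of collagen receptors, uptake and degradation, 20 had peaks, and 4 of their 114 peaks were called higher (3.51%) and 1 lower (0.877%), with a median difference of 0.16. Ddr1, the collagen receptor tyrosine kinase of epithelial cells, rose 2.00-fold at a peak 2.17 kb downstream of its start, with 222 reads with mA2 dRNA and 111 reads with Con dRNA (adjusted p = 0.0138 in the authors' deposited table). The lower call was at Itga11, an integrin chain that binds fibrillar collagen, with 76.4 reads with mA2 dRNA and 210 reads with Con dRNA at a peak 3.61 kb upstream (adjusted p = 0.000780 in the authors' deposited table). The other higher calls were at the integrin chains Itga1 and Itga2, which pair with integrin beta 1 to bind collagen, and at Mrc2, an endocytic collagen receptor. At Itga1 there were 235 reads with mA2 dRNA and 120 reads with Con dRNA, 244 kb upstream (adjusted p = 0.0143 in the authors' deposited table). At Itga2 there were 82.6 reads with mA2 dRNA and 32.0 reads with Con dRNA (adjusted p = 0.0444 in the authors' deposited table), and at the Mrc2 promoter 477 reads with mA2 dRNA and 301 reads with Con dRNA (adjusted p = 0.0249 in the authors' deposited table). Centring by chromosome or by window ended the Itga1 call, and all 4 centrings ended those of Itga2 and Mrc2. Both lists thus held calls in each direction, beside 2.23% of all peaks called higher and 0.507% called lower.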

How the data were processed

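Accessibility was measured by ATAC-seq in 4 libraries, 2 per group. FastQC, Bowtie2, Picard, MACS2, DiffBind, ChIPseeker, deepTools and the build mm10 are listed, without versions, per the submitters' processing notes. Not given in the sources used here are their roles, how duplicates and insertion sites were treated, the scaling of libraries, whether reads were pooled to call peaks, and the test behind the p-values. The authors' deposited table gave the log2 of their mean normalized reads per group, a log2 fold, p-values and adjusted p-values, an annotation and the distance to the start of the assigned gene, per the file headers. The adjusted p-values equalled Benjamini-Hochberg values of the p column over all 80881 peaks to within 7.40e-06. The header calls the groups dmA12 and dLuc, which were taken as mA2 dRNA and Con dRNA because the series holds 1 contrast. A further 4 columns hold values of single libraries under names that no label gives, and were used in no step, so no SD and no depth per library were computed and the precision of each mean is unknown.

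From the table, means were raised from the log2 scale, differences and folds taken, and calls counted at an adjusted p under 0.05 (Python 3.11.15, numpy 2.4.6, pandas 2.3.3, scipy 1.17.1, matplotlib 3.10.9). The authors' log2 fold lies nearer 0 than the difference (median ratio 0.77 over called peaks), so ratios of means are printed. For the centring alternatives, the standard error was taken as the difference over the normal score of its p. Differences were centred on the median of all peaks, a running median of 2001 peaks along the mean, the chromosome or a 10 Mb window, and retested with adjustment over all peaks. For p above 0.5 the running median of the standard error was used, a choice made after seeing the data. Centring on the median of all peaks was checked on simulated peaks with a uniform shift, and the Benjamini-Hochberg step on a small example. The other centrings were not checked in this way. Collagen genes were matched to RefSeq by gene ID, 43 of 43.

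The members, the pathway, class and marker lists and the named peaks were chosen with earlier results of these data known. Named are every called collagen peak, up to 3 further genes per class by smallest p, the peak nearest the start of each called gene, the peaks beside the threshold, and up to 3 genes per pathway list by smallest p. Chosen after their values were seen are the further collagen peaks and genes given here, among them the most open peaks of Col18a1 and Col28a1, the uncalled peaks at Col6a1, Col6a2 and Col22a1, the start peaks of Col1a1, Col4a1, Col4a5 and Col15a1, and the remaining pathway calls.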

Additional observations from a re-analysis of the deposited data

How the results depend on the processing

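Of the 14 higher collagen calls, 9 in 7 genes held under all 4 centrings: both at Col22a1, both at Col6a2, and those at Col16a1, Col8a1, Col6a1, Col5a1 (24.0 kb upstream) and Col6a3 (93.4 kb). The count of higher collagen calls was 10 when centred on the median of all peaks, along the mean or by chromosome and 11 by 10 Mb window, where a Col1a2 peak 47.8 kb upstream was newly called. These made 3.09% and, by window, 3.40% of collagen peaks, where between 1.32% and 1.62% of all peaks were called higher. With means of at least 20 reads the count was 13 (4.26%, against 2.32% of all peaks). With at least 50 reads it was 11 (5.82%, against 2.81%). It was 17 at an adjusted p under 0.1 (5.25%, against 3.24%) and 7 at 0.01 (2.16%, against 1.07%). Within 3 kb it was 1 (2.13%, against 1.33%) and within 50 kb 8 (3.98%, against 1.72%). Chosen after seeing the data, it was 6 inside collagen genes (2.40%, against 2.23%). Also chosen then, it was 9 with the 42 collagen VI peaks left out of the 324, where 2.23% of all peaks were called higher. Collagen VI thus held 5 of the 14 higher calls. The lower count was 0 by chromosome, by window, at 0.01, within 3 kb, within 50 kb and inside collagen genes. In those settings between 0.209% and 0.592% of all peaks were called lower. The median collagen difference fell to 0.18 on the median of all peaks and 0.14 under each other centring, and was 0.22 within 3 kb, 0.17 inside collagen genes, 0.19 without collagen VI genes and 0.025 with the authors' log2 fold, whose median over all peaks was 0.01. Biosynthesis peaks called higher numbered 4 by chromosome, by window and at 0.01, 12 at 0.1 and 3 within 3 kb, and those called lower 1 at 0.01 and within 50 kb and 0 within 3 kb. Receptor peaks called higher numbered 2 on the median, along the mean, within 3 kb and within 50 kb. They numbered 1 by chromosome and by window and 0 at 0.01, and those called lower 0 within 3 kb. Of all peaks, 1.62% were called higher on the median, 1.59% along the mean, 1.46% by chromosome and 1.32% by window. The share was 1.07% at 0.01, 3.24% at 0.1, 1.33% within 3 kb and 1.72% within 50 kb. The 1 receptor call by chromosome or by window, 0.877% of 114 peaks, was below the share of all peaks. No named peak that was called before or after a change of setting changed sign. Sign changes of named peaks uncalled in both were not counted. The cause of the changes in counts and medians was not tested, except that distance limits and stricter thresholds leave fewer peaks by construction. No paired analysis was possible because no column of a single library bears a sample name, and for that reason leaving out each library and other library scalings were not run. Depth per library is unknown, so ratios against control means under 25 reads are the least certain.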

Other observations

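Peaks inside collagen genes were not always assigned to them. Of the 250 peaks inside the RefSeq bounds of a collagen gene, 60 were assigned to another gene, and 2 of these were called higher. In intron 2 of Col8a1, the peak at chr16:57643937-57644337 was assigned to Cmss1, 37.1 kb from its start, and held 95.0 reads with mA2 dRNA and 35.3 reads with Con dRNA, a rise of 2.69-fold (adjusted p = 0.0395 in the authors' deposited table). It lies in the same gene as the Col8a1 peak with the largest collagen fold. In an intron of Col22a1, the peak at chr15:71850343-71850743 was assigned to Fam135b, 123 kb from its start, and held 114 reads with mA2 dRNA and 47.3 reads with Con dRNA, a rise of 2.41-fold (adjusted p = 0.0238 in the authors' deposited table).

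Collagen peaks did not always share the median of their chromosome. On chromosome 10, the 39 peaks of Col6a1, Col6a2, Col18a1, Col10a1 and Col13a1 had a median difference of 0.49, beside 0.04 over all 3727 peaks there. On chromosome 1, 47 collagen peaks of 7 genes had a median of 0.31, where all 5683 peaks had a median near 0. Of these 47 peaks, 18 were assigned to Col6a3, which lies in a 10 Mb window with a median of 0.28. The 31 peaks of Col1a2 and Col28a1 on chromosome 6 had a median of -0.04, with Col1a2 at 0.16 and Col28a1 at -0.34. Both genes lie in a 10 Mb window with a median of -0.18. The part of such windows in these medians was not tested.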
